A study of Mus musculus with 6 samples.

Results

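Hmga2 and 9 further genes, Hmga1, Lin28a, Lin28b, Igf2bp1, Igf2bp2, Igf2bp3, Arid3a, Arid3b and Plagl2, form a set of oncofetal genes that are textbook targets of the microRNA let-7. Members were taken as the rows whose mouse Ensembl identifier carries one of these 10 symbols, and all 10 were found among the 55401 genes of the count table. The let-7 family accumulates as tissues mature and holds these transcripts down through matches to its seed in their 3' UTRs. LIN28 proteins block the maturation of let-7 and are themselves let-7 targets, so high LIN28 and low let-7 sustain each other in embryonic tissue and in many tumours. The HMGA proteins bend DNA in chromatin, the IGF2BP proteins bind and stabilise mRNA, and ARID3 and PLAG-family proteins are transcription factors, all with high expression before birth.

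The series compared gene expression with and without extra miR-497 in angiosarcoma, a cancer of vessel-lining cells. Both groups were ADC106 cells, a mouse angiosarcoma line whose genotype is labelled WT, transfected with a microRNA mimic at 12.5 nM and sampled after 3 days. A mimic is a short synthetic duplex that loads Argonaute with a chosen guide strand. The NC group received the mimic labelled NC and the other group the miR-497 mimic, with 3 libraries of poly(A)-enriched RNA each, and cells without a mimic were not analysed here. ADC106 is a single line, and nothing says whether libraries of a group came from separate cultures, so p-values measure only the spread between these libraries, which may be technical.

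Library totals ran from 25777676 to 36159499 counts. Endothelial identity was visible in every library: all 10 endothelial markers were tested, and their summed level was 8740 to 9461 CPM (counts scaled to a common library total) with NC and 8733 to 9155 CPM with miR-497, with 7 of them higher and 2 lower. No leukocyte marker of 5 passed the count filter (at most 0.241 CPM summed) and 1 of 5 epithelial markers did (at most 1.18 CPM summed), whereas all 5 fibroblast and mural markers were tested, at 191 to 202 CPM summed with NC and 247 to 292 CPM with miR-497 (2 higher, 1 lower), and of 4 adipocyte markers only Fabp4, which endothelial cells also express, was (higher), with Plin1 and Lep at 0. Mitochondrially encoded genes took 2.11% ± 0.0698 of counts with NC and 3.30% ± 0.428 with miR-497 (SD, n = 3). The part of the mural markers and of the mitochondrial share in the results below was not tested. In bulk RNA, fewer cells of a kind and less RNA per cell cannot be told apart. Of 9 tested miR-16 family targets, which served as a check of the mimic, all 9 were lower with miR-497. This list was chosen with earlier results of these data known, so the check is weak. Over all tested genes 23.8% were higher and 26.0% lower, the background for the counts of higher and lower genes in this paragraph.

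The mature guide strands and the sites they could pair with are shown because the set is defined by one microRNA and the cells were given another. Sequences are from RefSeq on GRCm38.p6 and written 5′ to 3′, with the seed (bases 2 to 8) in capitals.
miR-497a-5p: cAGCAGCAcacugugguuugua
let-7a-5p: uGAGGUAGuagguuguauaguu
The 2 seeds differ, and no mature mouse sequence in the table belongs to both families. Of the mature mouse sequences, 10 carry the miR-497 seed, among them miR-15a-5p, miR-16-5p, miR-195a-5p and miR-322-5p, and 11 carry the let-7 seed, among them let-7b-5p, let-7g-5p and miR-98-5p.

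Seed matches were searched on the sense strand in the longest annotated 3' UTR of each gene. A match was TGCTGCT for miR-497 and CTACCTC for let-7 (7mer-m8, or 8mer with a following A), or their last 6 letters followed by A (7mer-A1). All 10 members held a let-7 match, which follows from how such genes are known and is no finding; of 12859 tested genes with a 3' UTR, 17.5% held one. Hmga2 had 7 let-7 matches in 3014 bases, and 4 tested genes in all had as many. Lin28b, Igf2bp1 and Arid3b had 5 each, Arid3a 4, Lin28a and Igf2bp2 2, and Hmga1, Igf2bp3 and Plagl2 1. A miR-497 match was held by 5 members, Hmga1, Hmga2, Lin28b, Igf2bp1 and Igf2bp3, against 28.1% of tested genes with a 3' UTR, and Hmga1 was the only member with an 8mer, which 4.61% of those genes held. A match is a description of the letters and not evidence of binding.

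The miR-497 matches of the 5 members are shown with their surroundings, as the places where the mimic's seed could pair. All lie in the 3' UTR within a single exon of the GENCODE M21 annotation (GRCm38), on the strand of the transcript, and the matched letters are in capitals.
Hmga1 8mer, chr17:27563345-27563372, plus strand: acccactattgcTGCTGCTAccagcgtc
Hmga2 7mer-A1, chr10:120362933-120362960, minus strand: gcacttgttacacGCTGCTAgacacaag
Lin28b 7mer-m8, chr10:45378436-45378463, minus strand: agcacaccttgaTGCTGCTgcagcctgc
Igf2bp1 7mer-m8, chr11:95957431-95957458, minus strand: gcattggggggcTGCTGCTtgtgactgt
Igf2bp3 7mer-m8, chr6:49085854-49085881, minus strand: tcctcaaggccaTGCTGCTttctgagtt
In Hmga1 a 7mer-m8 overlaps the 8mer, since the repeated letters let the seed pair in 2 registers, at bases 863 to 869 and 866 to 873 of the 3' UTR counted from the base after the stop codon. The nearest let-7 match lay 25 bases from the miR-497 match in Lin28b, 40 in Hmga2, 55 in Hmga1, 694 in Igf2bp1 and 917 in Igf2bp3.

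Let-7 matches are shown by the 8mer nearest the stop codon in Hmga2, Lin28b and the IGF2BP genes, as examples of the sites that define the set, whether or not the gene was called.
Hmga2 let-7 8mer, chr10:120364216-120364243, minus strand: gacattcaatttCTACCTCAgcatcagt
Lin28b let-7 8mer, chr10:45381014-45381041, minus strand: cgggcgggaagtCTACCTCAtgcaagca
Igf2bp1 let-7 8mer, chr11:95961770-95961797, minus strand: gtgcgaagtaaaCTACCTCAaggtgtga
Igf2bp2 let-7 8mer, chr16:22059465-22059492, minus strand: cacaaataaaagCTACCTCAggtgtttt
Igf2bp3 let-7 8mer, chr6:49086779-49086806, minus strand: atttttactcaaCTACCTCAggtattca

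**Figure D1:**
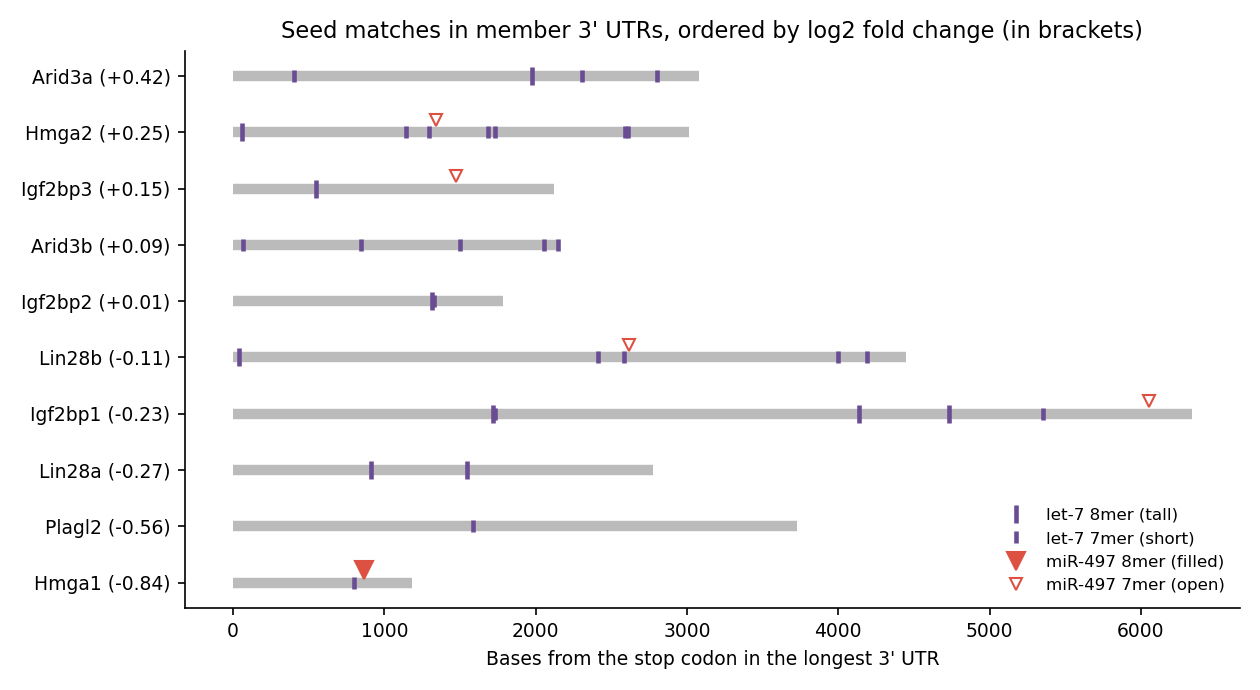
Seed matches of at least 7 bases along the longest 3' UTR of each member (horizontal axis, bases from the stop codon; grey bars, UTR length), with let-7 matches as purple ticks and miR-497 matches as red triangles. Genes are ordered by log2 fold change, miR-497 over NC, from 0.42 for Arid3a at the top to -0.84 for Hmga1 at the bottom, and only Hmga1 carries a filled triangle, an 8mer for miR-497.

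The oncofetal set did not move together. With miR-497, Hmga2, Arid3a and Igf2bp3 rose, Hmga1, Plagl2 and Igf2bp1 fell, and Lin28a, Lin28b, Igf2bp2 and Arid3b did not pass the test (edgeR quasi-likelihood test, Benjamini-Hochberg adjusted over 14661 genes, threshold 0.05). All 10 members passed the filter on low counts. The 3 of 10 that were higher stand against 23.8% of all tested genes, the 3 of 10 that were lower against 26.0%, and the 6 called in either direction against 49.8%, so the members were called about as often as other genes. The count of higher members rests on Igf2bp3. It was 2 in place of 3 with no low-count filter, and with the replicate number as a further term. The same held when NC library 1, NC library 2 or any miR-497 library was left out. The 3 miR-497 libraries lay on one side of the 3 NC libraries for 6 of 10 members, against 57.4% of all tested genes. The members' median log2 fold change was -0.05, and that of all tested genes was -0.02. The largest fitted change among the members, in Hmga1, was a fall by 44.3%.

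**Figure D2:**
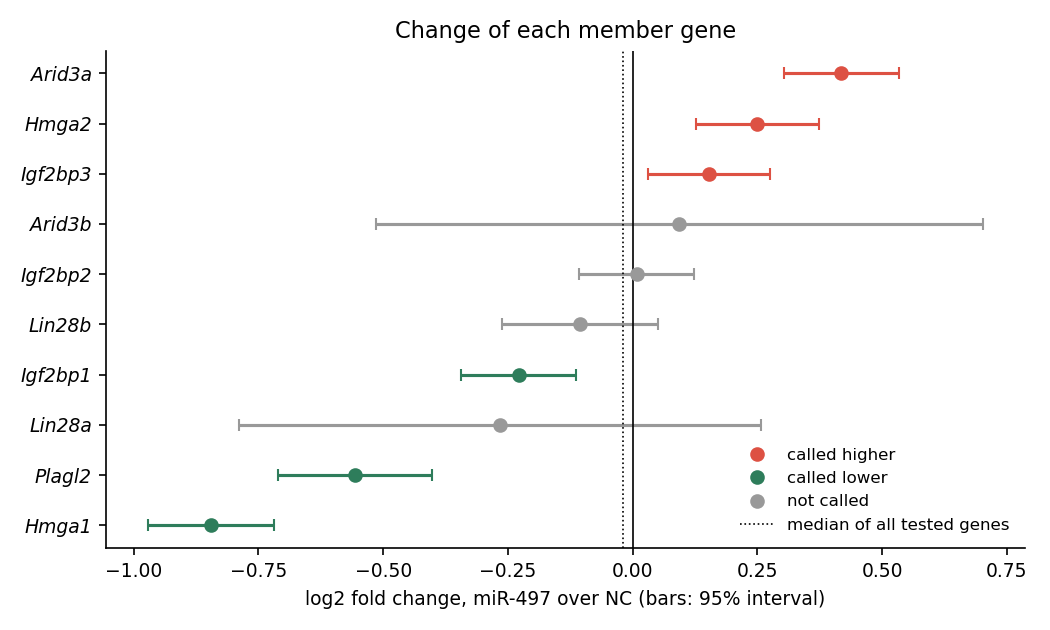
Log2 fold change of each member, miR-497 over NC (horizontal axis), with 95% intervals from the edgeR fit. Arid3a, Hmga2 and Igf2bp3 lie above 0 with their intervals, Igf2bp1, Plagl2 and Hmga1 lie below it, and the intervals of the other 4 span 0.

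The HMGA genes changed in opposite directions. Hmga2 (ENSMUSG00000056758, chr10:120361275-120476469, minus strand), an AT-hook protein that opens chromatin in embryonic and tumour cells, stood at 860, 880 and 938 CPM in NC libraries 1 to 3 and at 1118, 1045 and 1023 CPM in miR-497 libraries 1 to 3. All miR-497 libraries were above all NC libraries, and the gap between the groups was small beside the level. Its log2 fold change was 0.25 (95% interval 0.13 to 0.37, SE 0.0581, edgeR adjusted p = 0.0017), a rise by 18.9%. Of all tested genes, 28.8% had a higher log2 fold change. Its miR-497 match is a 7mer-A1 near the middle of the 3' UTR, at bases 1342 to 1348. In these libraries its transcript did not fall.

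Hmga1 (ENSMUSG00000046711, chr17:27556497-27563674, plus strand), the second AT-hook gene and one abundant in dividing cells, went from 281, 295 and 274 CPM under NC to 170, 157 and 147 CPM in miR-497 libraries. The groups were far apart, with the highest miR-497 library well below the lowest NC library. The log2 fold change was -0.84 (edgeR adjusted p = 5.6e-09 with an SE of 0.0596), and 8.79% of all tested genes had a lower one. Hmga1 is the member with the miR-497 8mer. Its value carries a doubt of counting: 69.1% of the 50-base words in its longest transcript also occur in other genes' transcripts, nearly all in Hmga1b, a near-identical copy. Counts of Hmga1b were 37, 44 and 50 with NC and 10, 12 and 24 with miR-497, with a log2 fold change of -1.37 (edgeR adjusted p = 0.014 with an SE of 0.430). The handling of reads that align to several places is not given in the sources used here, so the split between the copies is uncertain. Both were lower, but reads of one copy may be counted for the other, so these values are not independent. The miR-497 matches lie in the long 3' UTR models of Hmga1 (1183 bases in the longest), while the shortest annotated 3' UTR, of 49 bases, holds neither a miR-497 nor a let-7 match.

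Per length of all exons, the HMGA pair went from near balance to an excess of Hmga2 in the reads as counted. The doubt of counting for Hmga1 applies to its level here, and so to the balance and the ratio. Of the 50-base words in the longest transcript, 69.1% were shared with other genes for Hmga1 and 4.36% for Hmga2. RPKM (CPM per kilobase of exon) in NC cells was 132 ± 5.99 for Hmga2 and 133 ± 5.19 for Hmga1 (SD, n = 3), which do not differ beyond their spread, and with miR-497 it was 157 ± 7.30 and 74.3 ± 5.52. The ratio of Hmga2 to Hmga1 RPKM came to 0.960, 0.934 and 1.08 for the NC libraries, against 2.06, 2.09 and 2.19 for those with miR-497, with no overlap. Hmga2 thus made up 49.7% ± 1.87 of the pair's RPKM with NC and 67.9% ± 0.667 with miR-497. The level of this share depends on the length used, and with the longest transcript in place of all exons it was 62.3% and 77.9%. Its direction cannot depend on the length, which is the same in both groups.

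The LIN28 genes, the blockers of let-7 maturation, did not pass the test. Lin28b (ENSMUSG00000063804, chr10:45376620-45486395, minus strand), the paralog often found in tumours, was at 44.8, 44.3 and 46.4 CPM with NC and 38.1, 44.6 and 43.0 CPM with miR-497. The groups overlapped: miR-497 libraries 1 and 3 lay below all NC libraries, and miR-497 library 2 lay above NC library 2. Its log2 fold change was -0.11 (95% interval -0.26 to 0.05, SE 0.0736, edgeR adjusted p = 0.249). The 3' UTR of Lin28b, of 4445 bases, holds a miR-497 7mer-m8. Lin28a (ENSMUSG00000050966, chr4:134003330-134018841, minus strand), the paralog of pluripotent cells, was scarce, with 103, 106 and 99 counts with NC and 61, 108 and 63 with miR-497, or 2.07 to 3.52 CPM over all libraries. Its log2 fold change of -0.27 (95% interval -0.79 to 0.26, SE 0.247, edgeR adjusted p = 0.396) gives no settled direction at this depth. Leaving out a library moved it between -0.50 (without miR-497 library 2) and -0.11 (without miR-497 library 3), and moved that of Lin28b between -0.15 (without miR-497 library 2) and -0.04 (without miR-497 library 1). Lin28b made up 86.3% ± 0.864 of the pair's RPKM with NC and 87.6% ± 2.47 with miR-497 (SD, n = 3).

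The IGF2BP genes split 3 ways at the threshold, though the rise of Igf2bp3 did not keep its call in every fit. Igf2bp1 (ENSMUSG00000013415, chr11:95957163-96005940, minus strand), a fetal mRNA-binding protein that protects transcripts such as Myc from decay, was at 292, 300 and 324 CPM with NC and at 258, 266 and 256 CPM with miR-497. The groups did not overlap, and the log2 fold change was -0.23 (95% interval -0.34 to -0.11, SE 0.0541, edgeR adjusted p = 0.0020), a fall by 14.7%. Its 3' UTR, the longest of the set at 6337 bases, holds a miR-497 7mer-m8 near its end and 3 of the let-7 8mers.

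Igf2bp2 (ENSMUSG00000033581, chr16:22059009-22163299, minus strand), the paralog that HMGA2 is known to activate in muscle and that many adult tissues keep, was at 282, 283 and 305 CPM with NC and at 283, 304 and 289 CPM with miR-497. The groups overlapped fully. Its log2 fold change was 0.01 (edgeR adjusted p = 0.917 with an SE of 0.0541), and the 95% interval of -0.11 to 0.12 leaves room for only small changes. Igf2bp2 has no miR-497 match in its 3' UTR.

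Igf2bp3 (ENSMUSG00000029814, chr6:49085223-49214957, minus strand), an oncofetal paralog used as a tumour marker, was at 90.2, 88.1 and 98.2 CPM with NC and at 101, 105 and 101 CPM with miR-497. The miR-497 libraries were all above the NC libraries, by a narrow margin over NC library 3. The log2 fold change was 0.15 (95% interval 0.03 to 0.28, SE 0.0578, edgeR adjusted p = 0.037). This call did not survive leaving out any of 5 libraries: the edgeR adjusted p was 0.151 without NC library 1, 0.212 without NC library 2, and 0.0599, 0.102 and 0.0533 without miR-497 libraries 1, 2 and 3. Exons of Malsu1 on the opposite strand cover 18.7% of the exon bases of Igf2bp3. In the longest Igf2bp3 transcript, 34.45% of the 50-base words, read on either strand, also occur in Malsu1. Reads of these shared stretches cannot be told apart if counting ignored strand. Malsu1 itself was at 12.9 to 15.4 CPM over the 6 libraries.

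Within the IGF2BP family, Igf2bp1 made up 38.4% ± 0.379 of the RPKM with NC and 34.1% ± 0.399 with miR-497 (SD, n = 3), Igf2bp2 47.8% ± 0.254 and 49.98% ± 0.497, and Igf2bp3 13.8% ± 0.248 and 15.9% ± 0.1005. For each of the 3 genes the libraries of the groups did not overlap in this share. Igf2bp2 was the most abundant per length in either group, at 39.2 ± 1.77 RPKM with NC, followed by Igf2bp1 at 31.5 ± 1.72 and Igf2bp3 at 11.3 ± 0.658.

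**Figure D3:**
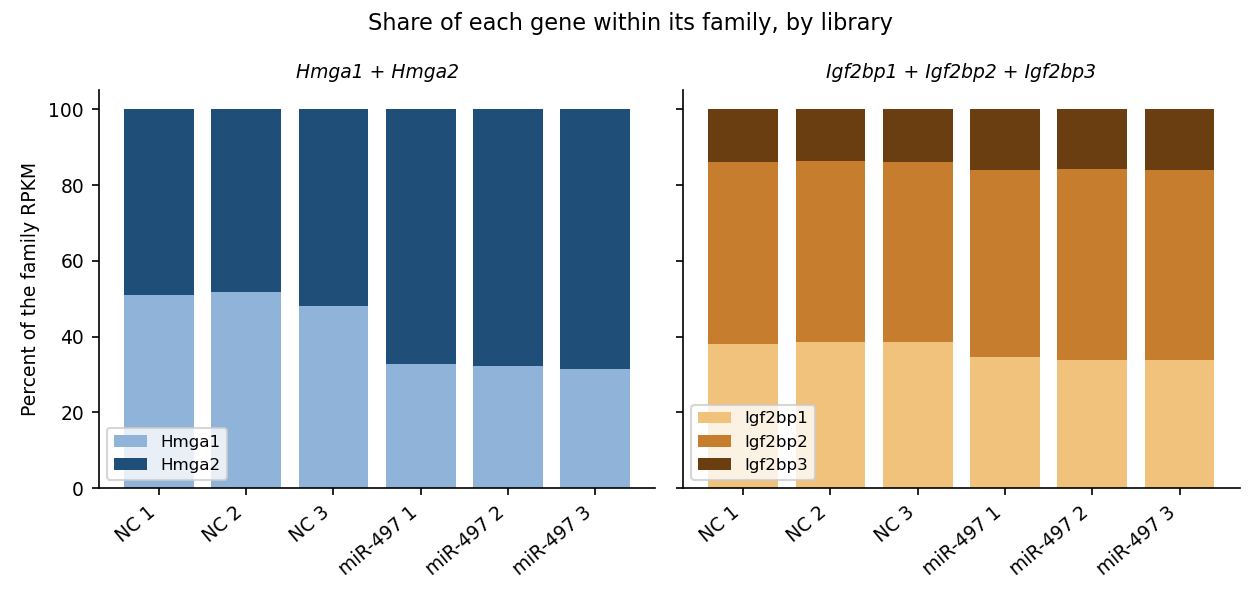
Percent of the family's RPKM (vertical axis) held by each gene in each of the 6 libraries, for the HMGA pair (left) and the IGF2BP genes (right). Hmga2 holds 48.3 to 51.8% in NC libraries and 67.3 to 68.6% in miR-497 libraries, while the IGF2BP shares move by a few percent.

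The ARID3 genes encode AT-rich interaction domain factors that bind regulatory DNA in early embryos and B cells. Arid3a (ENSMUSG00000019564, chr10:79927043-79955018, plus strand) showed the largest rise of the set, from 84.3, 85.5 and 90.9 CPM with NC to 114, 117 and 118 CPM with miR-497. The groups were well apart, and the libraries of each were close to one another. Its log2 fold change was 0.42 (edgeR adjusted p = 6.6e-06 with an SE of 0.0544), a rise by 33.6%, and 18.6% of all tested genes had a higher one. Its 3' UTR has 4 let-7 matches and for miR-497 only a 6mer, which is not counted as a match here, and its coding sequence holds 1 miR-497 match of 7 or more bases. Arid3b (ENSMUSG00000004661, chr9:57790353-57836793, minus strand), its paralog, had only 62, 75 and 56 counts with NC and 70, 62 and 49 with miR-497. Its log2 fold change was 0.09 (95% interval -0.51 to 0.70, SE 0.287, edgeR adjusted p = 0.811), and it was -0.15 without miR-497 library 1, so no direction can be given. Arid3a held 98.4% ± 0.0779 of the pair's RPKM with NC and 98.7% ± 0.379 with miR-497 (SD, n = 3).

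Plagl2 (ENSMUSG00000051413, chr2:153227759-153241426, minus strand), a zinc-finger transcription factor of the PLAG family that drives proliferation, fell from 60.9, 60.7 and 68.1 CPM with NC to 45.8, 43.2 and 39.998 CPM with miR-497. The groups did not overlap. The log2 fold change was -0.56 (edgeR adjusted p = 7.6e-06 with an SE of 0.0732), a fall by 32.0%. Its 3' UTR of 3730 bases holds only a 6mer for miR-497, and its coding sequence holds 1 miR-497 match of 7 or more bases. Coding matches were as many in Arid3a and Igf2bp3, which rose, and numbered 4 in Arid3b, which did not pass. The other 6 members had none. The share of all tested genes with a coding match is not given here, so these counts have no background. The part of coding matches in the changes was not tested.

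**Figure D4:**
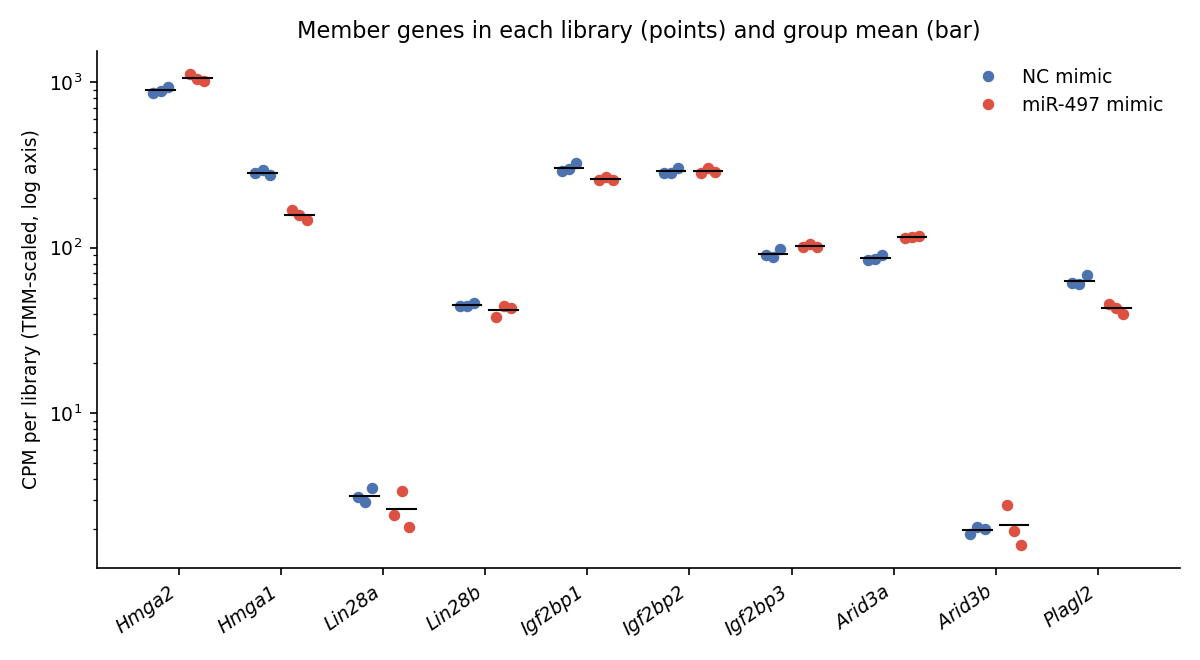
CPM of each member (vertical axis, log scale) in each NC library (blue) and miR-497 library (red), with the group mean as a bar. Lin28a and Arid3b lie below 4 CPM in all 6 libraries, with wide scatter, while Hmga2 lies between 860 and 1118 CPM.

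Across the set, expression per length spanned a wide range, and the order was the same in both groups apart from neighbours that lie within their spread. In NC cells Hmga1 and Hmga2 led, at ranks 269 and 273 of 14644 tested genes with a known length. The rank of Hmga1 carries its doubt of counting. Igf2bp2 and Igf2bp1 followed, then Arid3a at 15.6 ± 0.637 RPKM, Igf2bp3 at 11.3 ± 0.658 and Plagl2 at 11.02 ± 0.732, of which the last pair did not differ beyond their spread. Lin28b was at 4.98 ± 0.125 RPKM, Lin28a at 0.795 ± 0.0782 and Arid3b at 0.247 ± 0.0117 (SD, n = 3). With miR-497, Hmga2 at 157 RPKM was above Hmga1 at 74.3 RPKM and Igf2bp3 at 12.6 ± 0.295 RPKM above Plagl2 at 7.496 ± 0.503 RPKM. The order between genes depends on the length used, here that of all exons. With the longest transcript instead, Igf2bp3 in NC cells was at 21.2 RPKM, above Arid3a at 16.2 and Plagl2 at 11.3. Hmga2 was then at 234 RPKM in NC cells, above Hmga1 at 142.

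Among the 5 members with a miR-497 match, 2 were lower, 2 higher and 1 did not pass. Over all tested genes with a 3' UTR, the 3617 with a miR-497 match had a median log2 fold change of -0.17, and 40.9% of them were lower and 18.2% higher. The 2246 genes with a let-7 match had a median of -0.02, against -0.03 for the 10613 genes without one, and 29.7% of them were lower and 26.3% higher. With let-7 and miR-497 matches together (992 genes, the class of Hmga1, Hmga2, Lin28b, Igf2bp1 and Igf2bp3) the median was -0.12, and with a let-7 match alone (1254 genes, the class of Lin28a, Igf2bp2, Arid3a, Arid3b and Plagl2) it was 0.03. Genes with neither had a median of 0.02. For 8mers alone the 443 genes with a let-7 8mer and no miR-497 8mer had a median of -0.04. That class can include genes with a miR-497 7mer, which the class of 1254 genes excludes. It is thus no test of the same class, and the sign of the small value of 0.03 remains unsettled. These medians describe classes of genes that also differ in 3' UTR length.

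Other let-7 targets were listed from general knowledge, 30 genes in all, to see how the rest of the pathway moved. Of 29 tested, 9 were higher and 13 lower with miR-497, against 23.8% and 26.0% of all tested genes, and the median log2 fold change was -0.17. This median was -0.10 without NC library 3 and -0.27 without miR-497 library 2. The largest changes of the list were falls in the cyclin gene Ccnd2 (from 858 ± 44.2 to 306 ± 21.5 CPM, log2 fold change -1.49, SE 0.0630), the cyclin-dependent kinase gene Cdk6 (88.1 ± 5.49 to 38.1 ± 2.79 CPM, -1.21, SE 0.0720) and the ubiquitin-conjugating enzyme gene Cdc34 (212 ± 8.81 to 108 ± 5.55 CPM, -0.97, SE 0.0559; SD, n = 3). Their edgeR adjusted p-values were 1.4e-11, 7.4e-10 and 4.9e-10. Ccnd2, Cdk6 and Cdc25a of this list are also listed targets of the miR-16 family. A miR-497 match was present in 8 of the 13 lower genes and in 2 of the 9 higher genes, and a let-7 match in 12 and 8 of them.

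The higher genes of the list included oncofetal regulators, named here after their values were seen. Trim71, a stem-cell ubiquitin ligase known as LIN41 and a classical let-7 target, rose from 38.1 ± 2.62 to 71.5 ± 5.26 CPM (SD, n = 3), a difference of 0.91 on the log2 scale (edgeR adjusted p = 3.5e-08 with an SE of 0.0746), and its 3' UTR holds 6 let-7 matches and no miR-497 match. Bach1, a haem-regulated repressor, rose by 0.85 on the log2 scale (edgeR adjusted p = 3.6e-09 with an SE of 0.0582). Mycn, the fetal MYC paralog, rose by 0.72 (edgeR adjusted p = 9.1e-09 with an SE of 0.0529), whereas Myc fell by 0.17 (edgeR adjusted p = 0.014 with an SE of 0.0547). Nr6a1, an embryonic nuclear receptor with 8 let-7 and 2 miR-497 matches, fell by 0.58 (edgeR adjusted p = 8.3e-07 with an SE of 0.0622).

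The genes that make, cap or destroy let-7 were listed next, 13 in all and all tested. With miR-497, 7 (53.8%) were lower and 3 (23.1%) higher, against 26.0% and 23.8% of all tested genes, and the median log2 fold change was -0.24. The largest falls were in Tarbp2, the double-stranded RNA-binding partner of Dicer (69.9 ± 4.06 to 23.4 ± 2.02 CPM, log2 fold change -1.58, edgeR adjusted p = 1.0e-10 with an SE of 0.0792), in Trim25, an interferon-inducible ligase that acts with LIN28A (-0.70, edgeR adjusted p = 1.8e-08 with an SE of 0.0545), and in Hnrnpa1, an RNA-binding protein that interferes with let-7 processing (-0.66, edgeR adjusted p = 1.5e-07 with an SE of 0.0611). The terminal uridyltransferase genes Tut4 and Tut7, which tail precursor let-7 for decay, fell by 0.38 and 0.43 on the log2 scale (SE 0.0769 and 0.0539, edgeR adjusted p = 0.00056 and 4.3e-06). Dis3l2, the exonuclease that degrades the tailed precursor, rose by 0.36 (edgeR adjusted p = 0.0069 with an SE of 0.101). Dicer1, which cuts the precursor, was at 54.8 ± 3.58 and 58.7 ± 4.14 CPM (SD, n = 3) and did not pass (log2 fold change 0.10, edgeR adjusted p = 0.260 with an SE of 0.0723). The count of higher genes in this list was 1 in place of 3 when NC library 1, NC library 2 or miR-497 library 2 was left out. Mature let-7 was not measured, since it carries no poly(A) tail.

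**Figure D5:**
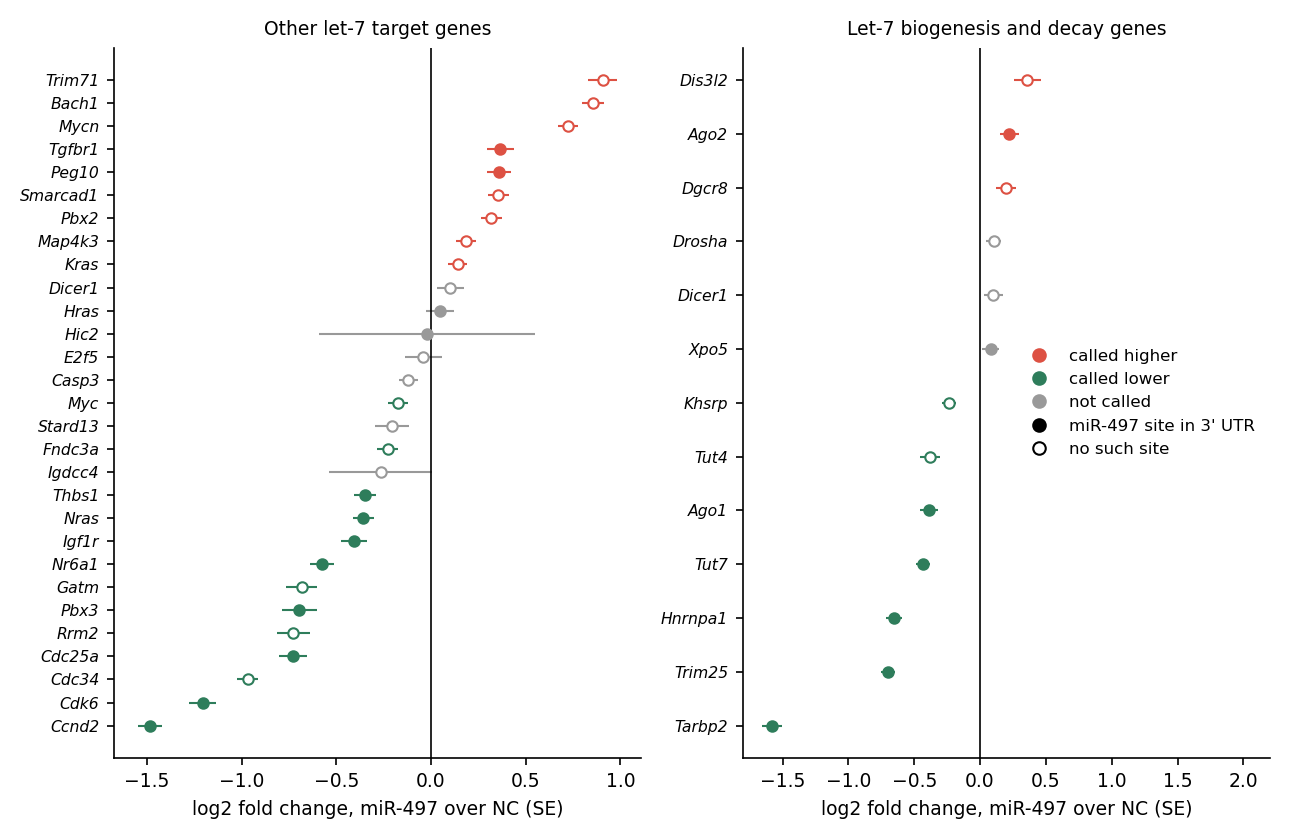
Log2 fold change with its SE, miR-497 over NC, for the 29 tested other let-7 targets (left) and the 13 let-7 biogenesis and decay genes (right); red is higher, green lower and grey not called, and filled points have a miR-497 match in the 3' UTR. Ccnd2 and Tarbp2 lie lowest in their panels, at -1.49 and -1.58, and Trim71 lies highest on the left at 0.91.

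Other fetal growth genes, 12 listed, had 8 tested members, of which 4 rose and none fell, against 23.8% higher and 26.0% lower of all tested genes. No tested member was lower at an unadjusted p under 0.05 in edgeR (0 genes), DESeq2 and limma called 0 lower, and with GC and length offsets edgeR called 1 lower. H19, the imprinted noncoding RNA that binds let-7, rose from 2005 ± 86.4 to 3607 ± 144 CPM (SD, n = 3), a difference of 0.85 on the log2 scale (edgeR adjusted p = 7.7e-09 with an SE of 0.0613). Mest, an imprinted gene of fetal mesoderm with 23.1% of its exon bases under opposite-strand exons, rose by 0.78 (edgeR adjusted p = 1.5e-08 with an SE of 0.0599) and the membrane ligand gene Dlk1 by 0.54 (edgeR adjusted p = 2.1e-07 with an SE of 0.0521) on the log2 scale. Plagl1, the imprinted relative of Plagl2, also rose, by 0.47 (edgeR adjusted p = 7.5e-05 with an SE of 0.0776). Igf2, the growth factor whose mRNA gives the IGF2BP genes their name, did not pass the count filter, at 0.454 ± 0.168 CPM with NC and 0.166 ± 0.0776 CPM with miR-497 (SD, n = 3). The list's median log2 fold change was 0.25, and it was -0.03 without miR-497 library 1. It also moved with the count filter, to 0.02 with no low-count filter and 0.48 with a mean count of at least 50.

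Transcripts known to be bound by IGF2BP proteins, 8 listed, had 6 tested members, of which 3 rose, Cd44 and H19 among them, and 2, Btrc and Myc, fell, against 23.8% and 26.0% of all tested genes. The median log2 fold change was 0.02, and its sign changed in 6 of 15 alternative fits, so the list has no direction; 1 gene in place of 2 was lower without NC library 2 or miR-497 library 3. The adhesion receptor gene Cd44 rose by 0.99 (edgeR adjusted p = 3.7e-07 with an SE of 0.0999) and the ubiquitin ligase gene Btrc fell by 0.74 (edgeR adjusted p = 1.5e-06 with an SE of 0.0837).

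The genes whose log2 CPM followed Hmga2 most closely over the 6 libraries, among 10333 genes with a mean log2 CPM of at least 2, were Polr1d, Serp1, Ppp1r21, Lipa and Rpn1, with Pearson correlations of 0.997, 0.996, 0.995, 0.995 and 0.995. With 2 groups of 3 libraries such values mostly repeat the difference between the groups. Their log2 fold changes ran from 0.12 to 0.32, as against 0.25 for Hmga2.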

How the data were processed

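RNA from 6 libraries was measured as raw read counts per gene, which the authors deposited as whole numbers. STAR 2.5.4b, featureCounts, Subread 1.6.1, edgeR 3.32.1 and the build GRCm38 are named per the submitters' processing notes; the annotation release, the strand setting and the handling of reads with several alignments are not given in the sources used here. Of 55401 identifiers, 55141 were given a symbol from GENCODE M21. In R 4.3.3, edgeR 4.0.16 was used with filterByExpr (minimum count 10, minimum total 15), TMM scaling and the group as the only term in a quasi-likelihood test, with Benjamini-Hochberg adjustment over 14661 genes at a threshold of 0.05. The SE is the log2 fold change divided by the square root of F. CPM uses TMM-scaled totals, and RPKM divides it by union exon length.

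Alternatives were DESeq2 1.42.0 (its size factors, and its test), limma 3.58.1 voom, upper-quartile scaling, other count filters, GC and length offsets, a replicate block, leaving out each library, other lengths and other site rules. The main edgeR fit was also run on simulated counts, in which far fewer genes changed than were called here. The outcome is not reported here, so it adds no weight to the calls. Members and lists were chosen with earlier results of these data known. Named were all members, the 3 called genes of each of the 4 pathway lists with the largest absolute log2 fold change at a mean log2 CPM of at least 2, Dicer1, Tut4, Tut7 and Dis3l2, and the 5 genes most correlated with Hmga2. The same rule was set for the miR-16 targets and the cell type markers, but these are given as counts and sums. Every other listed gene named, such as Plagl1, Igf2, Myc and Cdc25a, was chosen after its values were seen. An item of the lists is not reported here.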

Additional observations from a re-analysis of the deposited data

How the results depend on the processing

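Of 150 pairs of a member and an alternative, 137 changed neither sign nor call. Hmga2 (0.21 to 0.30), Hmga1 (-0.90 to -0.79), Igf2bp1 (-0.27 to -0.17), Arid3a (0.39 to 0.47) and Plagl2 (-0.60 to -0.49) did so in all 15. Igf2bp3 lost its call with no low-count filter (log2 fold change 0.15, edgeR adjusted p = 0.0709) and without 5 of the 6 libraries, where its range over all 6 was 0.12 to 0.21. Igf2bp2, near 0, was -0.013 with GC and length offsets, -0.013 with these and the replicate block, and -0.023 to 0.056 on leaving out a library; Arid3b ranged from -0.15 to 0.26 in the latter. The cause was not tested.

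The values gave no sign that the replicate numbers pair the libraries. Deviations of same-numbered libraries correlated at -0.12, -0.04 and -0.13, and 0 of 6 libraries correlated best with their own number. The labels do not say whether same-numbered libraries belong together, and these few correlations cannot decide it. With the replicate block, 3177 genes were higher and 3563 lower in place of 3490 and 3817, and Igf2bp3 was at 0.15 (edgeR adjusted p = 0.0770).

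Among the lists, let-7 biogenesis and decay had 1 higher gene with the replicate block and offsets, and 1 to 3 on leaving out a library. IGF2BP clients then had 1 to 3 lower genes and a median log2 fold change of -0.126 to 0.0469, which was -0.0590 with no low-count filter. Other fetal growth genes had 1 lower gene with the offsets, and their median ran from -0.0251 to 0.284 over the 6 such fits. With 8mers alone, genes with a let-7 match only had a median of -0.0402. Shares of family RPKM moved with the length used, in NC and miR-497 libraries respectively. With the longest transcript Hmga2 took 62.3% and 77.9%, Igf2bp1 31.3% and 27.4%, Igf2bp2 50.4% and 51.9%, and Igf2bp3 18.3% and 20.8%. With no length scaling the values were 75.9% and 87.1%, 44.4% and 39.8%, 42.2% and 44.6%, and 13.4% and 15.7%. Each length is the same in both groups, so the direction of the Hmga2, Igf2bp1 and Igf2bp3 shares could not change with it. The share of Igf2bp2 could have changed direction and did not. Depth limits Lin28a and Arid3b, with at most 108 counts in a library.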
